A study of Mus musculus with 14 samples.

Results

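Apoe, Apoc1, the C1q chain genes C1qa, C1qb and C1qc, Ctss, Lgmn, Cd68, Spi1 and Tyrobp are 10 transcripts usually abundant in macrophages, measured here in natural killer T (NKT) cells sorted from mouse thymus. They were picked by gene symbol, with their behaviour in these comparisons already known, and make up 10 of the 10303 named genes listed. In libraries taken 3 d after dexamethasone, the fitted level of Apoe was 6.84-fold and that of Apoc1 14.5-fold above vehicle. The fitted levels of the C1q chains were 2.27- to 2.87-fold above it, but the libraries overlapped vehicle for C1qb and C1qc. At 18 h, Lgmn, Ctss, Cd68 and Spi1 stood 2.24- to 4.06-fold above vehicle, and Apoe, Apoc1 and the C1q chains 1.10- to 1.47-fold. The 3 C1q chains kept similar proportions to each other in every library, with a spread above counting noise in the dexamethasone groups. The counts of Apoe and Apoc1 per C1q count were above all other libraries at 3 d, and those of Lgmn and Cd68 at 18 h.

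The study followed thymic NKT cells of young male WT mice after an intraperitoneal injection of dexamethasone, a synthetic glucocorticoid that shrinks the thymus. The 5 libraries of the first dexamethasone group were taken 18 h after a dose of 200 ug per 10 g of body weight, and the 4 libraries of the second group 3 d after the same dose. The 5 control libraries came from age-matched WT males given the vehicle, 8% ethanol, and taken at 3 d, so the 18 h group had no vehicle of its own time. Bulk MARS-seq, which counts the 3′ ends of polyadenylated transcripts, gave a count for each gene in each library. The labels do not say whether replicates were single mice or pools, so p-values measure only the spread between these libraries.

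Apolipoprotein E and apolipoprotein C-I are protein components of lipoprotein particles, and macrophages make much of the apolipoprotein E found outside the liver. The A, B and C chains of C1q assemble into the recognition molecule that starts the classical complement pathway, and tissue macrophages are a main source of all of them. Thymic macrophages engulf the many thymocytes that die during selection, and digest them in lysosomes that hold cathepsin S, legumain and CD68. PU.1, encoded by Spi1, is a transcription factor that specifies myeloid cells, and TYROBP (DAP12) is the signalling adaptor of several myeloid and natural killer receptors.

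Each library held 977037 to 2203273 counts, so a single count equalled 0.471 to 1.11 CPM (counts per library size after edgeR's TMM scaling). Of 18 T cell and NKT cell genes, 13 were listed and all 13 were tested. Most are shared with other T cells, so their sum does not measure NKT cell content. The summed level of those 13 genes was 3194 to 4408 CPM at 18 h, 3784 to 4358 CPM at 3 d and 4423 to 5726 CPM with vehicle. The 18 h replicates 2 and 3 stood apart in Cd8b1, a CD8 chain of immature thymocytes, at 1008 and 648 CPM, while the other 12 libraries held 9.43 to 71.2 CPM. In bulk libraries, fewer cells of a type and less RNA per cell cannot be told apart.

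Promoter windows are shown for C1qb and C1qc, whose levels kept pace with each other, for Apoe, whose proportion to C1q was higher at 3 d, and for Ctss, whose level varied least with C1q within groups. They are RefSeq sequences of build GRCm38.p6, from 250 bases before to 50 bases after the RefSeq start, 5′ to 3′ on the gene's strand. Apoe had 3 windows and Lgmn 2, of which the window nearest the annotated gene start was used. The RefSeq start of C1qc lies 151 bases inside the annotated gene, so most of its window lies within the gene. The Apoe window is chr7:19699139-19699438, minus strand. The C1qb window is chr4:136886151-136886450 and the C1qc window chr4:136892865-136893164, both minus strand. The Ctss window is chr3:95526536-95526835, plus strand. Capitals mark the PU.1 core GAGGAA and the interferon response core, which is 2 copies of GAAA with any 2 bases between them, each searched on both strands.
Apoe: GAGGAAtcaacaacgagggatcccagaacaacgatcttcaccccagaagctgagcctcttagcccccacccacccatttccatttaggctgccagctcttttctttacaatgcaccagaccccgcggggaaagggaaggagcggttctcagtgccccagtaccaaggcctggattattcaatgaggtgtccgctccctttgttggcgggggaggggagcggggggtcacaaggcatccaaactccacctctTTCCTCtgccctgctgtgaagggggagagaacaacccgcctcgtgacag
C1qb: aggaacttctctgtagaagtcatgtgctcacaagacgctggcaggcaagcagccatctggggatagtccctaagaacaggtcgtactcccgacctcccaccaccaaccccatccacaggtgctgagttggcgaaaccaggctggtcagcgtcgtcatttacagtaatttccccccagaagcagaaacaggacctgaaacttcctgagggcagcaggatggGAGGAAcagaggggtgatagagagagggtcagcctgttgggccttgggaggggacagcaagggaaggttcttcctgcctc
C1qc: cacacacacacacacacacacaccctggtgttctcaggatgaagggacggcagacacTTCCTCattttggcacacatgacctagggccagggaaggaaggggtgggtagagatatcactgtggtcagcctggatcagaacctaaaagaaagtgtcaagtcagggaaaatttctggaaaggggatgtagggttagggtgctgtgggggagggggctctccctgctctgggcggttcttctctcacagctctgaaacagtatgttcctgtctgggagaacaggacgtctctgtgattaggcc
Ctss: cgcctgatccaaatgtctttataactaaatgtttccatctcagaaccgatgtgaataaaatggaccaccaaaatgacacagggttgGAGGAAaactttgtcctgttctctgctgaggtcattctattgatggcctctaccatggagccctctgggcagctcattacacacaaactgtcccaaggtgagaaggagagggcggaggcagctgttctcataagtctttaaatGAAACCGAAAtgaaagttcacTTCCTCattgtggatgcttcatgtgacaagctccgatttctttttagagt
RefSeq windows were matched for 6 members, these 4 with Lgmn and Cd68, while Apoc1, C1qa, Spi1 and Tyrobp had no entry. The PU.1 core occurred 2 times each in the Apoe, Ctss and Cd68 windows, 1 time each in those of C1qb and C1qc, and was not found in the Lgmn window. Of 32817 promoter windows of the same length, 28.3% held it. The interferon response core occurred 1 time, in the Ctss window, and in 3.43% of all windows. Neither the glucocorticoid response element, in 0.475% of all windows, nor the LXR repeat, 2 copies of AGGTCA with any 4 bases between them, in 0.0152%, was found in the 6 windows. A match describes these letters and is not evidence of binding.

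Apoe lies on chromosome 7 at 19696109-19699188 of the mm10 (GRCm38) build, minus strand, and Apoc1 at 19689481-19692660 on the same strand, with 3448 bases between the genes. Apoe, the lipid-carrying apolipoprotein, had 1100.3, 539, 626, 212 and 889 CPM in the 18 h libraries, 5368, 3860.5, 1365 and 1909.9 CPM at 3 d, and 369, 467, 331, 675 and 443 CPM with vehicle. All 3 d libraries exceeded every 18 h and every vehicle library, whereas the 18 h and vehicle ranges overlapped. Its fitted log2 fold change against vehicle was 0.56 ± 0.42 (SE) at 18 h and 2.78 ± 0.46 at 3 d. Apoc1, which modulates lipoprotein metabolism, had 21.7, 6.85, 16.2, 3.30 and 35.0 CPM at 18 h, 458, 186, 91.5 and 123 CPM at 3 d, and 11.2, 23.3, 5.08, 20.4 and 17.7 CPM with vehicle. Again the 3 d libraries lay above all others, and the 18 h and vehicle libraries overlapped. The log2 fold change of Apoc1 was 0.13 ± 0.67 at 18 h and 3.86 ± 0.61 at 3 d. Without 3 d replicate 1 it was 3.13 at 3 d, and without 18 h replicate 5 the 18 h value was -0.38.

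**Figure D1:**
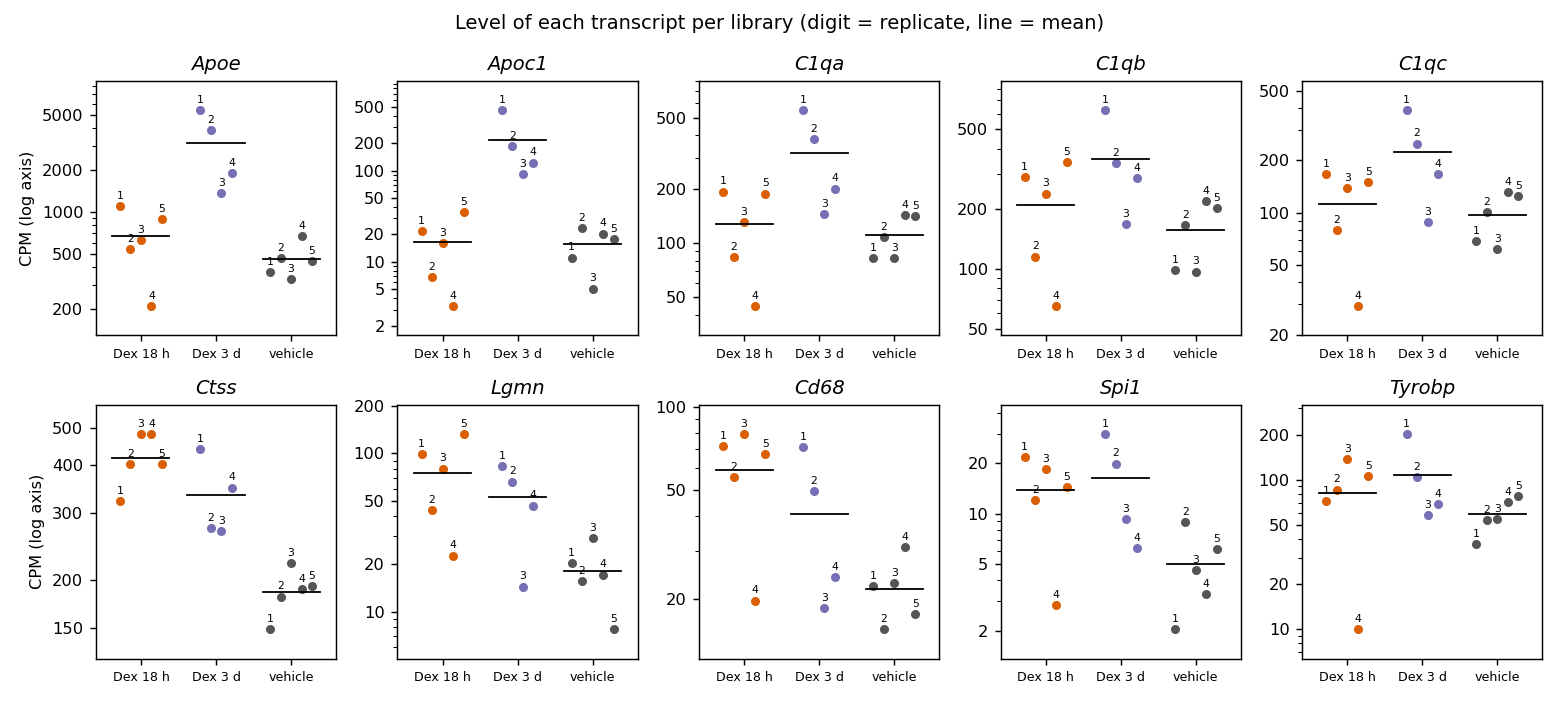
Level of each of the 10 transcripts in each library, in CPM on a log axis whose range differs between panels, for 18 h dexamethasone (5 libraries), 3 d dexamethasone (4) and vehicle (5). Each point is a library with its replicate number, and the line is the group mean. Apoe and Apoc1 at 3 d lie above every other library, and Ctss lies above vehicle at both times.

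The C1q genes form a cluster on chromosome 4, minus strand, with C1qb at 136880129-136886187, C1qc at 136889804-136893065 and C1qa at 136895917-136898803. C1qa had 194, 83.9, 131, 44.8 and 189 CPM at 18 h, 549, 379, 145 and 201 CPM at 3 d, and 82.2, 108, 82.4, 144 and 141 CPM with vehicle. C1qb had 288, 116, 238, 65.5 and 344 CPM at 18 h, 623, 339, 169 and 284 CPM at 3 d, and 98.5, 166, 97.1, 219.7 and 203 CPM with vehicle. For each chain 18 h replicate 4 was the lowest library and 3 d replicate 1 the highest. C1qc had 166, 79.6, 138, 29.2 and 150.4 CPM at 18 h, 387, 249, 88.1 and 167 CPM at 3 d, and 68.5, 101, 61.5, 132 and 125 CPM with vehicle. The lowest 3 d library of C1qa cleared the highest vehicle library by little, and for C1qb and C1qc those groups overlapped. The log2 fold changes at 18 h were 0.20 ± 0.41 for C1qa, 0.42 ± 0.45 for C1qb and 0.20 ± 0.45 for C1qc. At 3 d they were 1.52 ± 0.43 for C1qa, 1.18 ± 0.47 for C1qb and 1.20 ± 0.47 for C1qc. Without 3 d replicate 1 these 3 d values were 1.09 for C1qa, 0.73 for C1qb and 0.76 for C1qc.

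Among the lysosomal members, Ctss (chromosome 3, 95526786-95556403, plus strand) encodes cathepsin S, which trims the invariant chain of MHC class II. It had 322, 401, 482, 482 and 402 CPM at 18 h, 440.5, 274, 269 and 349 CPM at 3 d, and 149, 181, 222, 189 and 193 CPM with vehicle. No dexamethasone library overlapped the vehicle range, and 18 h replicate 4, the lowest in C1q, was among the highest in Ctss. Its log2 fold change was 1.16 ± 0.16 at 18 h and 0.84 ± 0.17 at 3 d. A processed pseudogene, Hmgb1-ps5, lies inside Ctss on the same strand, away from the 3′ end, where these counts fall.

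Lgmn (chromosome 12, 102394084-102439813, minus strand) encodes legumain, an asparaginyl protease of the lysosome. It had 99.5, 43.7, 80.2, 22.6 and 133 CPM at 18 h, 83.0, 66.4, 14.4 and 46.8 CPM at 3 d, and 20.3, 15.6, 29.0, 17.1 and 7.71 CPM with vehicle. Only 18 h replicate 4 and 3 d replicate 3 reached into the vehicle range, and the log2 fold change was 2.02 ± 0.51 at 18 h and 1.51 ± 0.54 at 3 d. Cd68 (chromosome 11, 69664213-69666153, minus strand) encodes a glycosylated protein of the lysosomal membrane. It had 71.9, 55.6, 79.5, 19.8 and 67.3 CPM at 18 h, 71.1, 49.3, 18.6 and 24.1 CPM at 3 d, and 22.3, 15.6, 22.9, 30.9 and 17.7 CPM with vehicle. The 18 h libraries other than replicate 4 stood above vehicle, and 2 of the 4 libraries at 3 d did. Its log2 fold change was 1.38 ± 0.38 at 18 h and 0.87 ± 0.41 at 3 d.

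Spi1 (chromosome 2, 91082390-91115756, plus strand) encodes PU.1 and had 4 to 45 counts per library. It had 21.7, 11.98, 18.4, 2.83 and 14.4 CPM at 18 h, 29.9, 19.9, 9.32 and 6.20 CPM at 3 d, and 2.03, 8.89, 4.58, 3.31 and 6.17 CPM with vehicle. Its log2 fold change was 1.54 ± 0.53 at 18 h and 1.82 ± 0.54 at 3 d, with overlapping ranges at both times. Tyrobp (chromosome 7, 30413760-30417585, plus strand), the adaptor gene, had 71.9, 85.6, 137, 9.90 and 105 CPM at 18 h, 202, 103, 57.6 and 68.9 CPM at 3 d, and 37.0, 53.3, 54.4, 70.7 and 77.9 CPM with vehicle. The ranges overlapped at both times, and the log2 fold change was 0.47 ± 0.51 at 18 h and 0.89 ± 0.53 at 3 d.

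By edgeR's quasi-likelihood test with Benjamini-Hochberg adjustment, 4 of the 10 members were called higher at 18 h than with vehicle (Ctss, Lgmn, Cd68 and Spi1), against 17.0% of the 7965 tested genes. At 3 d 5 members were called higher (Apoe, Apoc1, C1qa, Ctss and Spi1), against 12.1% of all genes. No member was called lower, against 17.3% of genes at 18 h and 13.8% at 3 d. Ranges did not overlap with vehicle for 1 member at 18 h and 4 at 3 d, beside 9.45% and 9.34% of genes that were higher in that way. Between 3 d and 18 h, Apoe and Apoc1 were called higher, 2 members beside 4.78% of genes, and none was called lower, beside 6.91%. At 3 d the number called higher was 10 without 18 h replicate 4, 3 without 3 d replicate 1 and 9 with only the 2 groups compared in the fit. Without 18 h replicates 2 and 3 it was 2 at 18 h and 1 between 3 d and 18 h. The members were chosen with these contrasts known, so nothing is read from the counts. The median log2 fold change of the members was 0.51 at 18 h and 1.36 at 3 d, beside 0.01 and 0.03 over all tested genes.

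**Figure D2:**
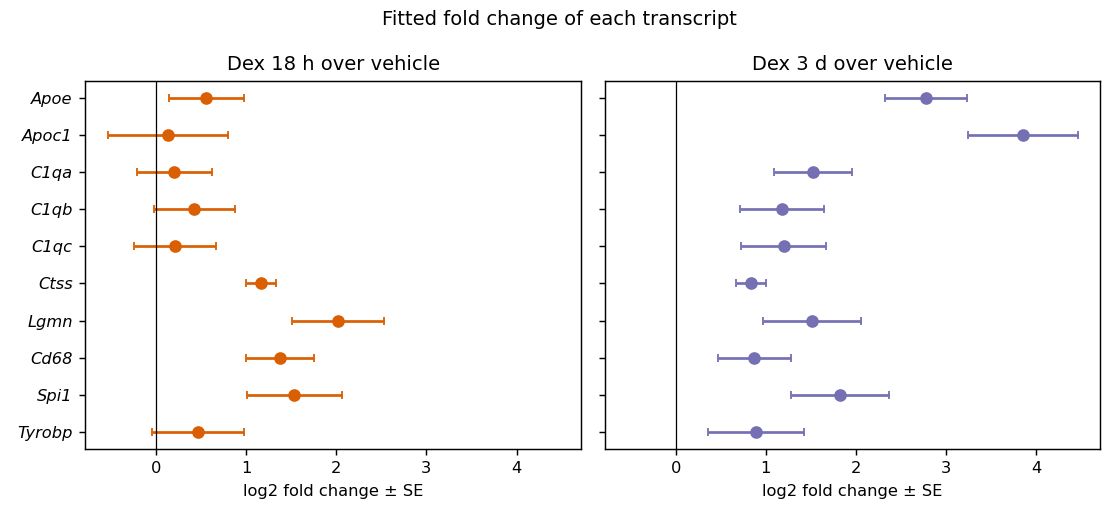
Fitted log2 fold change over vehicle of each transcript with its SE, for 18 h dexamethasone (left) and 3 d dexamethasone (right), from 5, 4 and 5 libraries in 1 fit. Lgmn, Spi1, Cd68 and Ctss lie farthest to the right at 18 h, and Apoc1 and Apoe at 3 d.

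Since counts of 1 library share its depth, the proportion of one member to another does not depend on scaling. Within the summed C1q counts, C1qa made up 29.1 ± 2.43% (SD, n = 5) at 18 h, 35.3 ± 3.46% (n = 4) at 3 d and 31.0 ± 2.44% (n = 5) with vehicle. C1qb made up 46.0 ± 3.33% at 18 h, 40.1 ± 3.69% at 3 d and 42.3 ± 2.27% with vehicle. C1qc made up 24.9 ± 3.29% at 18 h, 24.5 ± 1.78% at 3 d and 26.7 ± 0.724% with vehicle. The shares overlapped between all groups for each chain, although the summed C1q level ran from 139.6 to 1559 CPM over the 14 libraries. The chi-square of the 3 chains' counts per degree of freedom, which is near 1 where only counting varies, was 2.32 at 18 h, 3.63 at 3 d, 0.877 with vehicle and 3.88 over all 14 libraries. These counts come from 3′ ends, so a chain's share is a share of counts and says nothing of protein.

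**Figure D3:**
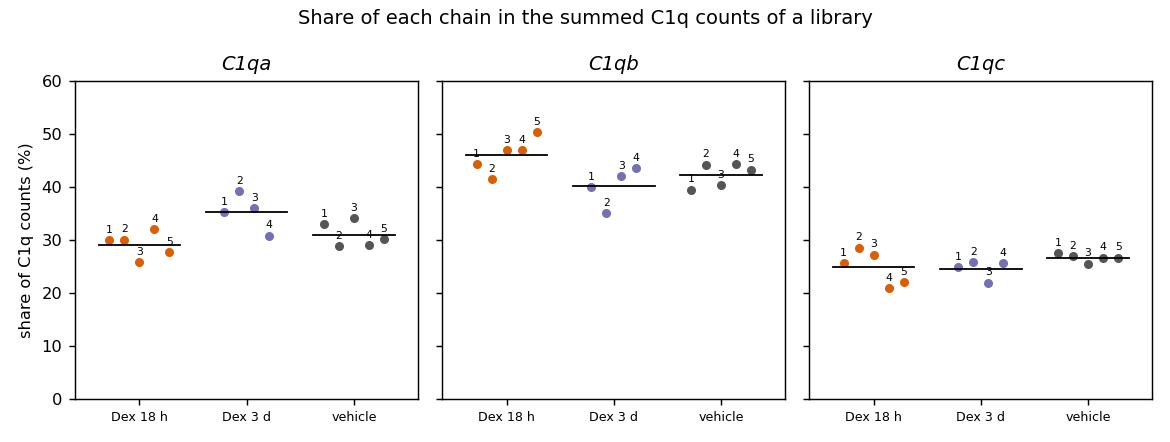
Share of C1qa, C1qb and C1qc in the summed C1q counts of each library, in percent, for 18 h dexamethasone, 3 d dexamethasone and vehicle. Each point is a library with its replicate number and the line is the group mean; every chain's ranges overlap between groups.

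Apoe did not stay in proportion to C1q. It gave 1.70, 1.93, 1.23, 1.52 and 1.30 counts per C1q count at 18 h, 3.44, 3.99, 3.399 and 2.93 at 3 d, and 1.48, 1.25, 1.37, 1.36 and 0.944 with vehicle. At 3 d the ratio was above all other libraries, a log2 difference of 1.43 from vehicle, or 2.70-fold, with an SE of 0.16. At 18 h the log2 difference was 0.26 with an SE of 0.15, and the ranges overlapped. Apoc1 went further, with 0.188 to 0.294 counts per C1q count at 3 d, against 0.0211 to 0.0623 with vehicle, a 5.66-fold difference. At 18 h its range of 0.0236 to 0.0513 lay within that of vehicle. Per Apoe count, Apoc1 gave 0.0481 to 0.0854 at 3 d and 0.0127 to 0.0394 at 18 h, which did not overlap, and 0.0154 to 0.05 with vehicle, which touched the 3 d range.

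Of the lysosomal genes, Lgmn and Cd68 stood higher per C1q count at 18 h. Lgmn gave 0.154, 0.156, 0.158, 0.162 and 0.194 counts per C1q count at 18 h, 0.0533, 0.0686, 0.0359 and 0.0717 at 3 d, and 0.0815, 0.0415, 0.120, 0.0346 and 0.0164 with vehicle. The 18 h libraries were above all others, by 1.80 on the log2 scale over vehicle with an SE of 0.46, although their C1q levels spread from 139.6 to 683 CPM. Cd68 per C1q count was 0.0985 to 0.199 at 18 h, 0.0369 to 0.0509 at 3 d and 0.0378 to 0.0949 with vehicle. Here too 18 h lay above both other groups, by a log2 difference of 1.17 from vehicle with an SE of 0.29. Ctss per C1q count was 0.497 to 3.45 at 18 h, 0.283 to 0.671 at 3 d and 0.382 to 0.922 with vehicle. The value of 3.45 was that of 18 h replicate 4, and the 18 h and vehicle ranges overlapped. The log2 difference from vehicle was 1.01 with an SE of 0.52, and 0.58 without that library. Spi1 per C1q count, from few counts, overlapped between the groups, with log2 differences from vehicle of 1.22 at 18 h and 0.44 at 3 d. Tyrobp per C1q count was 0.0709 to 0.307 at 18 h, 0.105 to 0.143 at 3 d and 0.142 to 0.226 with vehicle.

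**Figure D4:**
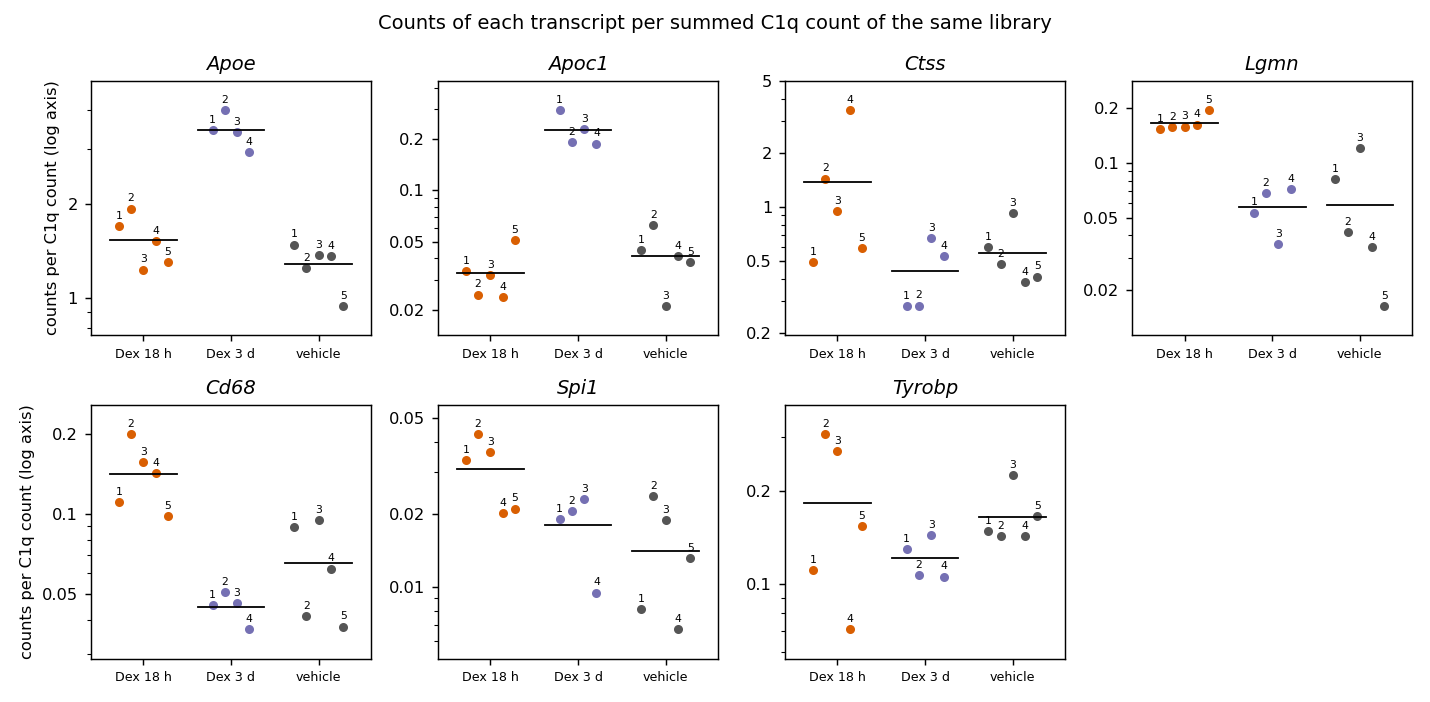
Counts of 7 members per summed C1q count of the same library, on log axes whose ranges differ between panels, for 18 h dexamethasone, 3 d dexamethasone and vehicle. Each point is a library with its replicate number and the line is the group mean. Apoe and Apoc1 are high at 3 d, and Lgmn and Cd68 at 18 h.

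The members' summed level also varied between libraries of 1 group. Their share of all counts was 0.260, 0.155, 0.205, 0.0858 and 0.236% at 18 h, 0.826, 0.544, 0.227 and 0.304% at 3 d, and 0.0815, 0.105, 0.0900, 0.142 and 0.113% with vehicle. After each group's mean was subtracted from log2(CPM + 1), Pearson's r with the summed C1q level over the 14 libraries was 0.95 for Apoe, 0.94 for Apoc1, 0.84 for Tyrobp, 0.82 for Cd68, 0.79 for Spi1, 0.68 for Lgmn and 0.06 for Ctss. The 2 libraries farthest from the median in C1q after that subtraction were then left out. Without them, r was 0.89 for Apoe, 0.92 for Apoc1, 0.68 for Tyrobp and 0.60 for Cd68. It was 0.65 for Spi1, 0.32 for Lgmn and 0.12 for Ctss. The lower r of Lgmn pools groups that differed. The chi-square per degree of freedom of Lgmn against summed C1q counts was 1.20 at 18 h, 3.12 at 3 d and 15.8 with vehicle. With vehicle, Lgmn was highest in replicate 3, which was lowest in C1q. The points share depth and library preparation, so these are descriptions with no p.

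**Figure D5:**
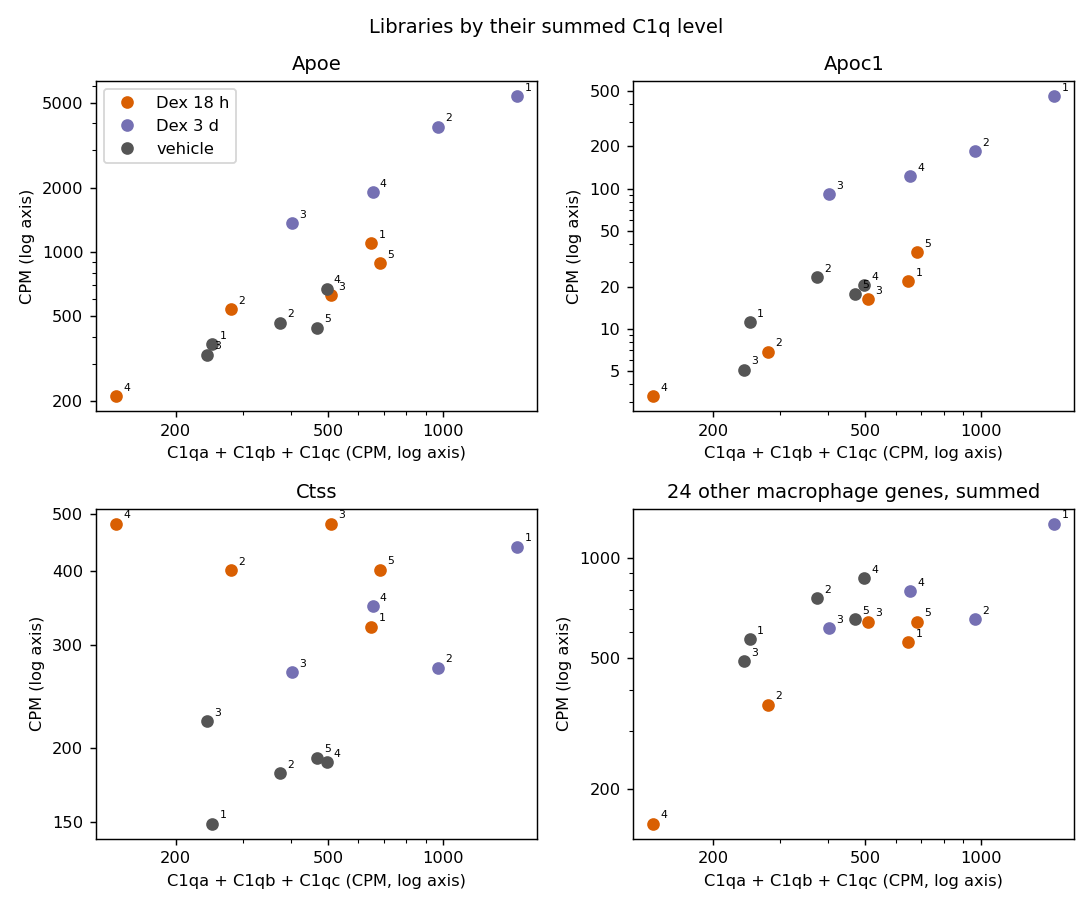
Level of Apoe, Apoc1, Ctss and the sum of 24 other macrophage genes against the summed C1q level, in CPM on log axes, with 1 point per library and its replicate number, for 18 h dexamethasone, 3 d dexamethasone and vehicle. The 3 d libraries lie above the others at like C1q levels for Apoe and Apoc1, and Ctss shows no such line.

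Of 30 other macrophage markers, 24 were listed and 13 tested. Against vehicle 3 rose and 2 fell at 18 h, beside 17.0% and 17.3% of all tested genes, with a median log2 fold change of 0.24. At 3 d 3 rose and none fell, beside 12.1% and 13.8% of genes, with a median of 1.11. Without 18 h replicate 4 the number that rose was 5 at 18 h and 6 at 3 d, and without 3 d replicate 1 it was 0 at 3 d. Without vehicle replicate 3, 1 fell at 3 d. With only the 2 groups compared in the fit, 1 rose at 18 h and 6 rose at 3 d. Their summed level was 157 to 643 CPM at 18 h, 613 to 1272 CPM at 3 d and 489 to 871 CPM with vehicle, overlapping at both times. The part of other cells in the members' levels was not tested. Of the 24 listed markers, 22 had counts in vehicle libraries, among them Csf1r with 23 to 68, Lyz2 with 241 to 757 and Adgre1 with 0 to 5. Cd5l and Marco, the exceptions, had none in any vehicle library. Cd5l had 2, 0, 2, 0 and 6 counts at 18 h and 42, 7, 1 and 6 at 3 d. Marco had 2, 2, 1, 8 and 3 counts at 18 h and 13, 0, 0 and 0 at 3 d. Per C1q count, the 24 genes together gave 0.861 to 1.29 at 18 h, below the vehicle range of 1.40 to 2.29. At 3 d they gave 0.677 to 1.53, which overlapped vehicle. Fcer1g alone held a mean of 289 of the 669 CPM of this sum with vehicle, and 98.7 of 472 CPM at 18 h. The lower ratio at 18 h is therefore not shown for the set as a whole. Hmox1, which degrades haem, rose at 18 h by a log2 fold change of 3.60 ± 0.52 (edgeR adjusted p = 8.3e-05). At 3 d Hmox1 was at 2.07 ± 0.58 (edgeR adjusted p = 0.016), and without 3 d replicate 1 at 1.40 (adjusted p = 0.088). Mrc1, the mannose receptor gene, rose at 18 h by 3.75 ± 0.72 (edgeR adjusted p = 0.00042). Its counts were few, with 8, 8, 12, 3 and 24 at 18 h and 0, 1, 2, 1 and 0 with vehicle. At 3 d Mrc1 was at 1.76 ± 0.95 (edgeR adjusted p = 0.17). Vcam1, an adhesion molecule, rose at 18 h by 2.81 ± 0.60 (edgeR adjusted p = 0.0014), and by 3.72 without vehicle replicate 3. At 3 d Vcam1 was at 2.36 ± 0.64 (edgeR adjusted p = 0.012), without 3 d replicate 1 at 1.69 (adjusted p = 0.085), and without vehicle replicate 3 at 3.27. Axl, a receptor for dying cells, fell by 1.16 on the log2 scale at 18 h (edgeR adjusted p = 0.0018).

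Among other complement genes, 7 of 21 were tested. At 18 h none rose and 1 fell, beside 17.0% and 17.3% of all tested genes. At 3 d 2 rose and 1 fell, beside 12.1% and 13.8%. Without any 1 of 4 libraries (18 h replicates 2 and 4, 3 d replicates 1 and 3), 1 rose at 18 h. Without any 1 of 5 libraries (3 d replicates 1 and 2, vehicle replicates 1, 2 and 3), 1 rose at 3 d. C3, the central complement component, rose at 3 d by a log2 fold change of 2.05 ± 0.40 (edgeR adjusted p = 0.0011). At 18 h C3 was at -0.04 ± 0.43. Itgb2, the integrin chain of complement receptors, fell at 18 h by 1.19 on the log2 scale (edgeR adjusted p = 2.4e-05) and at 3 d by 0.71 (edgeR adjusted p = 0.0070).

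Of 25 lipid-handling genes, which include targets of the LXR receptors, 13 were tested. At 18 h 8 rose and 1 fell, beside 17.0% and 17.3% of all tested genes. At 3 d 5 rose and 1 fell, beside 12.1% and 13.8%. The 1 fall at 18 h lost its call without any 1 of 7 libraries (18 h replicates 2 to 5, vehicle replicates 1, 3 and 4), while 2 fell without 18 h replicate 1. The 1 fall at 3 d lost its call without any 1 of 6 (3 d replicates 1, 3 and 4, vehicle replicates 1, 4 and 5). Median log2 fold changes were 0.77 at 18 h and 1.04 at 3 d, beside 0.01 and 0.03 over all tested genes. The cholesterol exporter Abca1 rose by 1.96 ± 0.37 at 18 h (edgeR adjusted p = 0.00037) and by 1.75 ± 0.39 at 3 d (edgeR adjusted p = 0.0024). Abcg1, which passes cholesterol to lipoproteins, rose by 0.86 ± 0.21 at 18 h (edgeR adjusted p = 0.0040) and by 1.39 ± 0.22 at 3 d (edgeR adjusted p = 0.00013). Nr1h3, the gene of the oxysterol receptor LXR alpha, rose by 2.40 ± 0.40 at 18 h (edgeR adjusted p = 0.00011) and was at 1.13 ± 0.46 at 3 d (edgeR adjusted p = 0.073, and 0.037 without 18 h replicate 4). The neighbour of Apoe and Apoc1 in the same cluster, Apoc4, was too low to be tested, with 43, 9, 2 and 4 counts at 3 d, 0 to 1 at 18 h and 0 to 2 with vehicle.

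Lysosomal genes other than the members gave 23 tested of 28. At 18 h 6 rose and 3 fell, beside 17.0% and 17.3% of all tested genes. At 3 d 8 rose and 2 fell, beside 12.1% and 13.8%. Without vehicle replicate 1 the number that rose was 3 at 18 h and 4 at 3 d. At 3 d it was 3 without 3 d replicate 1 and 5 without 3 d replicate 2, and the number that fell was 1 without any 1 of 8 libraries (the 4 of 3 d, and vehicle replicates 1, 2, 4 and 5). Ctsl, encoding cathepsin L, rose by 2.25 ± 0.45 at 18 h (edgeR adjusted p = 0.00083) and by 2.25 ± 0.47 at 3 d (edgeR adjusted p = 0.0018). The list of 23 genes around TYROBP holds receptors, kinases, related adaptors and other signalling proteins, and 9 were tested. None rose and 6 fell at 18 h, and none rose and 1 fell at 3 d, beside the same shares of all genes. Without 18 h replicate 1, 1 rose at 3 d. Fcer1g, the related adaptor of Fc receptors, fell by 1.56 on the log2 scale at 18 h (edgeR adjusted p = 0.0063). Of 23 genes of the PU.1 network, 14 were tested. Of these 3 rose and 2 fell at 18 h, and 2 rose and 2 fell at 3 d, beside the same shares of all genes. At 3 d the number that rose was 4 without 18 h replicate 4 or vehicle replicate 3, and 1 without any 1 of 6 other libraries (3 d replicates 1 and 3, vehicle replicates 1, 2, 4 and 5). Cebpb, a myeloid transcription factor gene, rose by 1.56 ± 0.32 at 18 h (edgeR adjusted p = 0.0016) and by 1.41 ± 0.33 at 3 d (edgeR adjusted p = 0.0059).

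Markers of other cells in the thymus were counted in the same way. The shares over all tested genes were again 17.0% rising and 17.3% falling at 18 h, and 12.1% and 13.8% at 3 d. Of 12 tested dendritic cell markers, 5 rose and 1 fell at 18 h, and 1 rose and none fell at 3 d. Without 18 h replicate 4, 3 d replicate 3 or 3 d replicate 4, 2 rose at 3 d. Of 4 tested monocyte and neutrophil markers, 2 rose and 1 fell at 18 h, and none was called at 3 d. Without 18 h replicate 2, 1 rose at 18 h, and without 3 d replicate 2, 1 rose at 3 d. Of 2 tested B cell markers, 1 fell at each time. Of 12 tested markers of CD4 CD8 thymocytes, 4 rose and 2 fell at 18 h, and 1 rose and 4 fell at 3 d. Their summed level was 1837 and 1445 CPM in 18 h replicates 2 and 3, while the other 18 h libraries held 340.4 to 549 CPM, the 3 d libraries 307 to 347 CPM and the vehicle libraries 415 to 699 CPM. Without 18 h replicates 2 and 3, 1 rose and 4 fell at 18 h and 7 fell at 3 d. The number that rose at 18 h was 7 without 18 h replicate 4, and at 3 d none rose without 3 d replicate 1. Of 7 tested natural killer cell markers, 2 fell at 18 h and 2 rose at 3 d. Without 18 h replicate 1, 5 fell at 18 h. At 18 h 1 rose without 18 h replicate 2, 3 or 4 or vehicle replicate 3, and at 3 d 1 rose without 3 d replicate 3 or vehicle replicate 1, 4 or 5. The 13 T cell and NKT cell genes had 2 higher and 4 lower at 18 h, and 1 higher and 5 lower at 3 d. Without vehicle replicate 5, 1 was higher at 18 h, and without 3 d replicate 2 or 3, 3 were lower at 3 d. The 1 higher at 3 d lost its call without any 1 of 7 libraries (3 d replicates 1, 3 and 4, vehicle replicates 1, 2, 4 and 5), and 2 were higher without vehicle replicate 3. No thymic epithelial marker of 15 passed the filter, and 1 of 18 markers of fibroblasts, endothelium and red cells did, which rose at 18 h and fell at 3 d. Its rise lost its call without 18 h replicate 3, and its fall without 3 d replicate 3 or vehicle replicate 4.

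The genes outside the set whose levels were most like Apoe over the 14 libraries, by Pearson's r of log2(CPM + 1), were Pltp (0.93), Il18bp (0.93), C3 (0.88), Cxcl16 (0.88) and Sf3b1 (0.85). For the summed C1q level they were Aif1 (0.90), Cxcl16 (0.89), Pltp (0.89), Csf1r (0.88) and Fam213b (0.87). With group means subtracted, the nearest to Apoe were Cfp (0.91), Csf1r (0.91), Camk1 (0.90), Vezf1 (0.90) and Il18bp (0.89). The nearest to C1q were then Cfp (0.94), Camk1 (0.93), Il18bp (0.90), Csf1r (0.89) and Mt1 (0.88). These genes were picked for their high r, so r is a description only. Without the 2 libraries farthest from the median, r was 0.69 (Cxcl16) to 0.82 (Il18bp) for Apoe and 0.70 (Fam213b) to 0.88 (Cxcl16) for C1q. With group means subtracted it was 0.75 (Vezf1) to 0.88 (Camk1) for Apoe and 0.72 (Mt1) to 0.93 (Camk1) for C1q. Pltp, which transfers phospholipid between lipoproteins, rose at 3 d by a log2 fold change of 2.42 ± 0.48 (edgeR adjusted p = 0.0019), or 1.80 without 3 d replicate 1, and was at -0.12 ± 0.53 at 18 h. Csf1r, the receptor for macrophage growth factor, was at -0.23 ± 0.34 at 18 h and 0.61 ± 0.35 at 3 d, and neither passed the test.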

How the data were processed

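NKT cells sorted from thymus were profiled by bulk MARS-seq, per the labels' protocols: 5 libraries at 18 h, 4 at 3 d and 5 with vehicle. The authors deposited a table of raw counts per gene, with columns of normalised signal, log2 fold changes and p-values of their own, which were not used here. The submitters' processing notes name bcl2fastq, cutadapt, STAR 2.5.2b, HTSeq, DESeq2 and mm10, without roles; strand and molecular barcode handling are not given in the sources used here. Of 10320 rows, 17 symbols that a spreadsheet had turned into dates, 0.102 to 0.147% of counts, were left out, and 7965 genes passed edgeR's filterByExpr.

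Counts of all 14 libraries went into 1 edgeR 4.0.16 quasi-likelihood fit (R 4.3.3, limma 3.58.1, TMM scaling, 2-sided, Benjamini-Hochberg, threshold 0.05), without replicate block. SE is the log2 fold change divided by the root of F. Alternatives were DESeq2 1.42.0, its size factors, no filter, only the groups compared, a replicate block and left-out libraries. The fit was tested on simulated data. Members and the 14 gene lists were chosen with earlier results of these data known, so members get no p-value. Named are members, up to 4 called genes of each list by adjusted p, and the 5 genes most like Apoe or C1q with a mean of at least 5 CPM; the text gives a selection. Cd8b1 marks thymocytes. A library at 0 counts allows up to 3, which covers counting error only, since no source used here says whether amplification was corrected for. Pairing was checked from the titles' replicate numbers and, as a choice made after seeing the data, from the deposited column names, whose numbers differ from the titles' at 3 d.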

Additional observations from a re-analysis of the deposited data

Results flagged for a closer look

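Among 5 18 h libraries, replicate 5 stood apart in Lgmn counts per C1q count at 0.194, with the next at 0.162. The spread of that ratio over the 18 h libraries was near counting noise, with a chi-square per degree of freedom of 1.20. Among 5 vehicle libraries, replicate 3 stood apart in Tyrobp counts per C1q count at 0.226, with the next at 0.166. Chance sets apart about 1 in 20 groups in this way.

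The effect at 3 d differed from that at 18 h in the edgeR fit (adjusted p below 0.05) for 13 genes named beside the members, both effects being taken over the same vehicle libraries. Higher at 3 d than at 18 h on the log2 scale were Pltp by 2.54, Klrk1 by 2.19, C3 by 2.09, Cxcl16 by 1.53, Ctsw by 1.39, Hcst by 1.39, Sf3b1 by 0.96 and Il18bp by 0.96. Lower at 3 d were Mt1 (-2.09), Mrc1 (-1.99), Hmox1 (-1.52), Nr1h3 (-1.27) and Plin2 (-1.23). Without 3 d replicate 1 the difference was 1.93 for Pltp and -2.18 for Hmox1, and without 18 h replicate 1 it was 2.83 for Klrk1. The differences of Cxcl16, Il18bp, Sf3b1, Mrc1, Hmox1, Nr1h3 and Plin2 each lost their call when some single libraries were left out, and those of Pltp, C3, Klrk1, Ctsw, Hcst and Mt1 did not. For Sf3b1 nearly every single library did so, as did DESeq2, its size factors, no filter, either replicate block and only the groups compared. Cxcl16, Il18bp, Mrc1, Hmox1, Nr1h3 and Plin2 also lost theirs with a replicate block, no filter or only the groups compared. Of 21 further named genes, from the 8 lists of other cell types, 16 also differed and are not listed.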

How the results depend on the processing

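Of 7965 genes, 2734 were called at 18 h, 2064 at 3 d and 931 between 3 d and 18 h. With only the 2 groups compared in the fit, 607 genes were called between 3 d and 18 h, and the cause was not tested. Leaving out 1 library at a time gave 2160 to 3154 calls at 18 h, 1488 to 2587 at 3 d and 643 to 1028 between the times. Same-number libraries correlated at -0.21 to 0.15, with 1 of 13 pairs over 0.1, so no pairing by the titles' numbers was seen. A correlation over all genes cannot exclude one. With a replicate block by these numbers, 2489, 1721 and 755 genes were called. By the numbers in the deposited column names, a choice made after seeing the data, they correlated at -0.21 to 0.04, with 0 of 13 pairs over 0.1, and with that replicate block 2449, 1790 and 713 genes were called. Without 1 library, the log2 ratio of Apoe to C1q counts differed from vehicle by 0.15 to 0.33 at 18 h and 1.33 to 1.51 at 3 d. Between the times it differed by 1.10 to 1.26. All 660 alternative fold changes of members and 336 alternative ratio differences moved by less than 1 SD between libraries within groups. Leaving out 1 library can hardly move a group's mean that far, so this bound does not show that the values were stable. Of the single libraries left out, 3 d replicate 1 lowered the 3 d fold change most for each member. Without it the log2 fold change at 3 d was 0.36 for Tyrobp, 0.41 for Cd68 and 1.28 for Spi1. With the column-number block 5 lysosomal genes rose at 3 d in place of 8. Leaving out 18 h replicate 4 and 3 d replicate 1 together was chosen after seeing the data. Cd8b1 at 18 h was at 2.86 on the log2 scale over vehicle (edgeR adjusted p = 0.076) and turned to -1.56 without 18 h replicates 2 and 3, the libraries that hold its counts. Depth limits Spi1, with 4 to 45 counts per library, Mrc1, with 0 to 24, and Apoc1 outside 3 d, with 7 to 51.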
